A study of Rattus norvegicus with 144 samples.

Results

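The genes described here are the globins and erythroid haem synthesis: Alas2, Hbb, Hba-a3, Hba-a1, Hba-a2 and Slc4a1, a list of 6 rat genes chosen by name. All 6 were on the arrays, through 8 of 31042 probe sets in the table that holds adrenal, pancreas and the liver of AMG B, and through 8 of 15866 in the table that holds the liver of AMG A. The study comprised 144 arrays from 72 male Sprague Dawley rats aged 8 to 10 weeks, in 36 groups of 4 animals. AMG A and AMG B are compounds known here only by these names, given by mouth every day, and the design text describes their pharmacology as antiangiogenic. Liver was taken on days 1, 4 and 14 from rats given AMG B at 3 or 60 mg/kg and their 0 mg/kg controls, and from rats given AMG A at 3 or 30 mg/kg and their own controls. Adrenal was taken on the same days for AMG B and on day 14 alone for AMG A, and pancreas on day 14 for each compound. Each value is a deposited score, standardised per probe set over the arrays of the study: for probe sets in both tables the SD over all 144 arrays was close to 1 (quartiles 0.999992 and 1.01). Whether values were logged beforehand is not given in the sources used here. Differences of scores therefore give no fold changes and no RNA amounts, and scores of different probe sets were not set against each other. Marker scores fitted the labelled tissue on every array of the larger table: the mean of 6 liver probe sets lay between 0.401 and 1.22 in liver and between -0.981 and -0.638 elsewhere, that of 5 adrenal probe sets between 1.03 and 1.79 in adrenal, and that of 4 pancreas probe sets between 1.57 and 3.14 in pancreas.

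Haemoglobin is built from alpha and beta globin chains, each of which holds a haem group that binds oxygen. Alas2 encodes the erythroid form of 5-aminolevulinate synthase, the enzyme that starts haem synthesis in red cell precursors, while Alas1 serves the same step in other tissues. Hbb encodes an adult beta globin, and Hba-a1, Hba-a2 and Hba-a3 belong to the alpha globin cluster. Slc4a1 encodes band 3, the anion exchanger of the red cell membrane. In an adult rat red cells form mainly in bone marrow and spleen, and young red cells still carry globin and Alas2 transcripts in the blood. On the GRCr8 assembly, Hbb lies at chr1:167662310-167663721, Alas2 at chrX:22890650-22914046 and Slc4a1 at chr10:87807010-87823274. The alpha globin genes lie side by side, Hba-a3 at chr10:15816099-15816943, Hba-a2 at chr10:15828291-15829138 and Hba-a1 at chr10:15841724-15842580. The 3 probe sets 1370239_at, 1370240_x_at and 1388608_x_at are annotated to both Hba-a2 and Hba-a1, so their scores cannot be assigned to either copy. Of these, 1370239_at and 1370240_x_at have the same target sequence, so the 3 are not separate readings. Likewise the Hbb probe set 1367553_x_at has a suffix that marks probes shared with similar transcripts.

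The promoters of Hbb, Hba-a2 and Hba-a1 are shown because the probe sets of these genes moved together in liver on days 4 and 14 and in adrenal on day 4. Each sequence is the 250 bases before the annotated start, from RefSeq on GRCr8, read 5′ to 3′ on the minus strand, at chr1:167663722-167663971, chr10:15829139-15829388 and chr10:15842581-15842830. Capitals mark GATAA and CACCC, the letters that erythroid GATA and Krüppel-like factors are known to read, searched on both strands.
Hbb: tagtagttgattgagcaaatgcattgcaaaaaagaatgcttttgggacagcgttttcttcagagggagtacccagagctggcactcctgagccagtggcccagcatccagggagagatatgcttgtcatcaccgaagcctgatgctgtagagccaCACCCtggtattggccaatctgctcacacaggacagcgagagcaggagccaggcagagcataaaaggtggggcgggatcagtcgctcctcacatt
Hba-a2: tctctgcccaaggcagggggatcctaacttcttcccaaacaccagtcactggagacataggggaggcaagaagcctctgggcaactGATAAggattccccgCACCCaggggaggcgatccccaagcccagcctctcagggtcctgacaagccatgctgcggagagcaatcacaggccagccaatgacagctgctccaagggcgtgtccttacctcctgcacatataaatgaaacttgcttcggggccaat
Hba-a1: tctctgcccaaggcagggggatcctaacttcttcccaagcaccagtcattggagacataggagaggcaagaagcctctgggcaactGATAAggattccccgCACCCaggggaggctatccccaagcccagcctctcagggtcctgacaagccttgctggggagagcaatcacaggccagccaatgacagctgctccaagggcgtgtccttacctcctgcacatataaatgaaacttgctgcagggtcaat

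Hba-a2 and Hba-a1 were identical at 241 of 250 positions (96.4%) and each held 1 GATAA, 164 to 160 bases before the start, and 1 CACCC, 149 to 145 bases before it. Hbb held 1 CACCC, 95 to 91 bases before the start, and no GATAA. Among 33469 rat promoters of the same length, 23.5% held GATAA, 49.2% held CACCC and 9.59% held both, so neither match is rare. A match is a description of letters and no evidence of a bound site. Sequences were found for 5 of the 6 genes. Hba-a3 held neither motif, and its window matched that of Hba-a1 at 61 of 250 positions when laid side by side without gaps. That count does not measure likeness, because shared letters are shifted between the windows. TATAAA lay 30 to 25 bases before the start in Hba-a3 and 28 to 23 in Hba-a1, and a CCAAT 73 to 69 and 71 to 67. The Alas2 window lay inside the annotated span of the gene and is not shown.

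In liver, the globins and Alas2 were lower under AMG B on days 4 and 14. Of the 8 probe sets 6, those of Alas2, Hbb, Hba-a3 and the Hba-a2 and Hba-a1 pair, passed the test as lower at 60 mg/kg on day 4 and again on day 14. The threshold was a Benjamini-Hochberg adjusted p of 0.05 over all probe sets of a contrast, in limma. Calls as lower made up 0.267% of all probe sets on day 4 and 2.71% on day 14. On these days the differences ran from -2.46 to -1.04. Bulk tissue cannot tell fewer cells of a type from less RNA per cell.

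Alas2 scored -1.28, -1.15, -1.05 and -0.94 in liver at 60 mg/kg on day 4, against 0.459, 0.557, 1.90 and 2.51 in controls. On day 14 it scored -1.04, -1.01, -1.0 and -0.783 at 60 mg/kg, against 1.08, 1.41, 1.44 and 2.01 in controls. Treated and control livers did not overlap on either day, and the controls were the more scattered. The difference was -2.46 (SE 0.399, adjusted p = 0.00163) on day 4 and -2.44 (SE 0.399, adjusted p = 0.00038) on day 14. Both calls held with each of the 8 animals left out in turn. In a fit of the compared groups alone the call of day 4 was lost (adjusted p = 0.0926) and that of day 14 was made.

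Hbb, the beta globin, followed the same course. Its scores at 60 mg/kg on day 4 were -1.59, -1.55, -1.49 and -1.31, against -0.0983, 0.114, 0.681 and 0.80 in controls. On day 14 they were -1.51, -1.37, -1.20 and -0.848 at 60 mg/kg, against 0.406, 0.533, 0.698 and 0.758 in controls. No treated liver reached the lowest control on either day. The difference was -1.86 (95% interval -2.27 to -1.45, adjusted p = 2.13e-06) on day 4 and -1.83 (95% interval -2.24 to -1.42, adjusted p = 2.74e-06) on day 14.

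Among the alpha globins, Hba-a3 scored -1.01, -0.817, -0.771 and -0.702 at 60 mg/kg on day 4, against 0.193, 0.357, 0.992 and 2.02 in controls, a difference of -1.72 (adjusted p = 0.000849). Its difference on day 14 was -1.73 (adjusted p = 0.000163), again with no overlap. Probe set 1388608_x_at of the Hba-a2 and Hba-a1 pair averaged -1.57 ± 0.176 at 60 mg/kg on day 4 and 0.409 ± 0.34 in controls (SD, n = 4 each). On day 14 it averaged -1.17 ± 0.393 at 60 mg/kg and 0.585 ± 0.167 in controls. Its differences were -1.98 (adjusted p = 5.99e-07) and -1.75 (adjusted p = 2.74e-06). The other probe sets of the pair differed by -1.65 and -1.40 on day 4 and by -1.28 and -1.04 on day 14. All 3 probe sets of these genes moved the same way, which is not separate support because they read the same genes. In a fit of the compared groups alone the calls of Hba-a3 on day 4 (adjusted p = 0.142) and of 1370239_at and 1370240_x_at on day 14 (adjusted p = 0.0582 and 0.0728) were lost.

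Slc4a1, the membrane member of the list, was not called in liver. On day 4 its probe sets differed by -0.0102 and -0.109 between 60 mg/kg and control livers, with adjusted p of 0.996 and 0.967. On day 14 probe set 1387656_at scored -0.0668, 0.475, 0.509 and 1.84 at 60 mg/kg, against 1.87, 1.92, 2.42 and 2.59 in controls. The groups did not overlap, but the difference of -1.51 had an adjusted p of 0.115. Probe set 1369634_at differed by -0.478 on the same day (adjusted p = 0.576). Control scores of 1387656_at in liver ran from -1.26 to 2.59 over the 3 days. The 95% intervals on day 14 were wide, -2.65 to -0.37 for 1387656_at and -1.31 to 0.36 for 1369634_at.

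**Figure D1:**
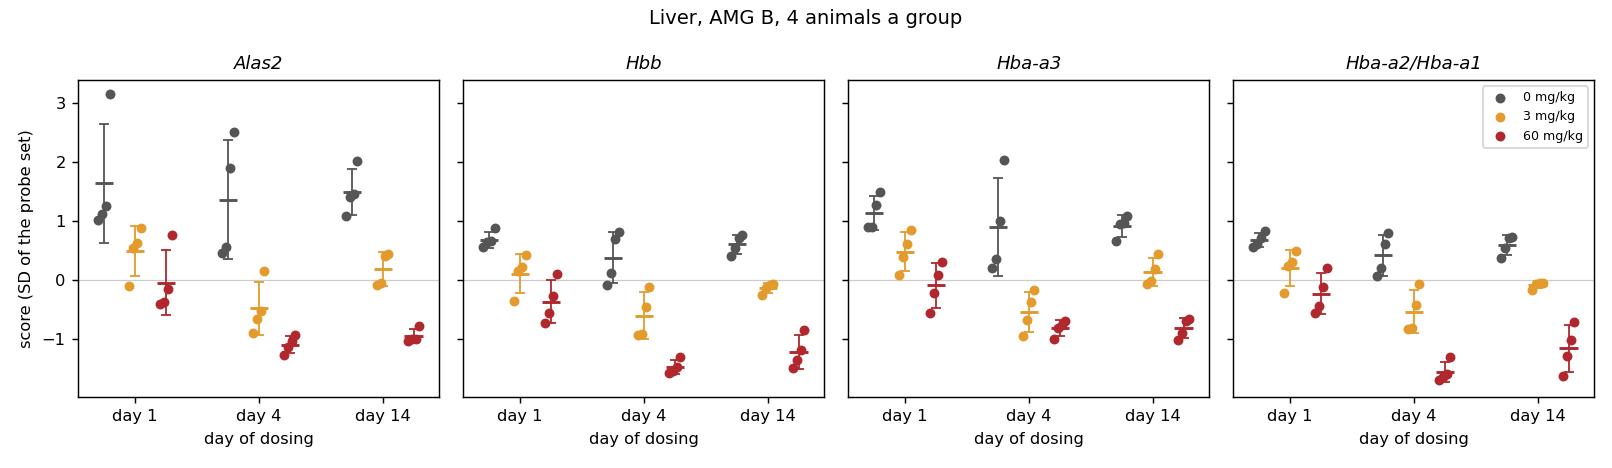
Scores in liver of rats given AMG B at 0, 3 or 60 mg/kg (x axis, grouped by day) for Alas2, Hbb, Hba-a3 and probe set 1388608_x_at of Hba-a2 and Hba-a1 (y axis, score in SD units of the probe set). Points are animals, lines the mean of 4 and bars the SD; on days 4 and 14 the points at 60 mg/kg lie below all controls in each panel.

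On day 1 the fall was smaller and passed the test for Hbb alone. Hbb scored -0.739, -0.575, -0.279 and 0.0938 in liver at 60 mg/kg on day 1, against 0.552, 0.631, 0.658 and 0.87 in controls. The difference was -1.05 (SE 0.20, adjusted p = 0.0234), where 0.0354% of all probe sets were called lower. That call held in only 1 of the 8 fits with an animal left out, with an adjusted p of up to 0.145, and was lost with the compared groups alone (adjusted p = 0.232). Alas2 scored -0.416, -0.384, -0.155 and 0.75 at 60 mg/kg, against 1.02, 1.12, 1.26 and 3.15 in controls, a difference of -1.68 (adjusted p = 0.134). Hba-a3 differed by -1.23 and 1388608_x_at by -0.91, each with an adjusted p of 0.061. Every treated liver lay below every control for 4 of the 8 probe sets on day 1, for 6 on day 4 and for 7 on day 14, against 2.7%, 3.82% and 4.95% of all probe sets. Whether the 60 mg/kg effect grew with time was tested directly: the change from day 1 to day 4 was -0.805 for Hbb and -1.05 for 1370240_x_at (adjusted p = 0.669 and 0.0726). No member was called for a change of the effect between any 2 days in liver, where 0.00322% (day 4 against day 1), 0.193% (day 14 against day 1) and 0.242% (day 14 against day 4) of probe sets were called. The days were thus not shown to differ.

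At 3 mg/kg the same genes lay below control in liver, mostly short of the threshold. The 3 and 60 mg/kg groups share their controls. Hba-a3 on day 4 was the 1 member probe set called, where 0.0193% of all probe sets were called lower. It scored -0.951, -0.688, -0.383 and -0.182 at 3 mg/kg, against 0.193, 0.357, 0.992 and 2.02 in controls, a difference of -1.44 (adjusted p = 0.0361). This call held in 3 of 8 fits with an animal left out and was lost with the compared groups alone (adjusted p = 0.66). Alas2 scored -0.904, -0.663, -0.535 and 0.15 at 3 mg/kg on day 4, a difference from the same controls of -1.84 (adjusted p = 0.169). On day 14 it scored -0.0987, -0.0531, 0.407 and 0.44 at 3 mg/kg, a difference of -1.31 (adjusted p = 0.504). Hbb differed by -0.988 on day 4 (adjusted p = 0.0964) and by -0.74 on day 14 (adjusted p = 0.407). No member was called on day 1 or day 14, where 0.00966% and 0% of probe sets were called. All animals at 3 mg/kg lay below all controls for 5 of the 8 probe sets on day 1, 6 on day 4 and 5 on day 14, against 1.93%, 1.84% and 1.85% of all probe sets.

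Setting the doses of AMG B against each other left 60 mg/kg lower. On day 14, 5 of the 8 probe sets were lower at 60 than at 3 mg/kg (1.62% of all probe sets): the difference was -1.09 for Hbb (adjusted p = 0.00226), -0.952 for Hba-a3 (adjusted p = 0.037) and -1.08, -0.939 and -0.868 for the Hba-a2 and Hba-a1 probe sets. For Hbb, the scores of 60 mg/kg given above compare with -0.26, -0.147, -0.0911 and -0.0682 at 3 mg/kg, and the groups did not overlap. Alas2 differed by -1.13 with an adjusted p of 0.112. On day 4 only the 3 probe sets of Hba-a2 and Hba-a1 were called lower, with differences of -1.02, -0.912 and -0.812, where 0.0483% of all probe sets were. No member was called on day 1, where 0.0129% were. The Hba-a3 call of day 14 held in 2 of 8 fits with an animal left out, while those of Hbb and the pair held in all 8. On day 4 the calls of 1388608_x_at and 1370239_at held in 4 of 8.

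In the adrenal gland Hbb and the Hba-a2 and Hba-a1 pair fell at 60 mg/kg of AMG B on day 4 and had means near control on day 14. These were 4 probe sets, where 0.593% of all probe sets were called lower. Hbb scored -1.85, -1.82, -1.81 and -1.77 in adrenal at 60 mg/kg on day 4, against -0.908, -0.688, -0.31 and 0.0538 in controls. The treated glands were almost equal, with an SD of 0.0322, and lay below all controls. The difference was -1.35 (SE 0.28, adjusted p = 0.00904), and it lost its call without control animal 13, with an adjusted p of 0.0629. The pair differed by -1.77 in 1370239_at (adjusted p = 0.00134), by -1.59 in 1370240_x_at (adjusted p = 0.000968) and by -1.47 in 1388608_x_at (adjusted p = 0.00159), calls that held with each animal left out. In a fit of the compared groups alone all 4 calls were lost, with adjusted p of 0.0599 to 0.0872. The mean of 6 macrophage probe sets ran from -1.17 to -1.02 at 60 mg/kg and from -0.969 to -0.819 in these controls, and that of 12 lymphocyte probe sets from -0.329 to -0.245 and from -0.232 to -0.184, neither with overlap. Platelet and neutrophil means overlapped, and the part of these cells in the result was not tested.

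Alas2 in adrenal fell just short on day 4. It scored -1.15, -1.08, -1.06 and -1.04 at 60 mg/kg, against -0.602, -0.563, -0.494 and -0.274 in controls, with no overlap and a difference of -0.598 (95% interval -0.914 to -0.283, adjusted p = 0.051). Hba-a3 differed by -0.673 (adjusted p = 0.204), also without overlap. Each of these 6 probe sets had every treated gland below every control, against 3.51% of all probe sets. Slc4a1 differed by 0.452 and -0.0577 (adjusted p = 0.675 and 0.973). On day 1 no member was called in adrenal at 60 mg/kg, where 0.335% of probe sets were called, and Hbb differed by -0.606 (adjusted p = 0.501).

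By day 14 the 60 mg/kg adrenals had scattered. Hbb scored -1.37 in animal 34, -0.511 in animal 36, 0.271 in animal 35 and 0.518 in animal 33, against -0.808, -0.793, -0.0542 and 0.138 in controls. The difference was 0.107 (95% interval -0.461 to 0.674, adjusted p = 0.912). Alas2 followed the same order of animals, with -0.92, -0.527, -0.287 and 0.185, against -0.59, -0.462, -0.212 and -0.0834 in controls. Probe set 1388608_x_at gave -1.32 in animal 34, -0.539 in animal 36, 0.165 in animal 35 and 0.352 in animal 33. Animal 34 was thus the lowest for each of these genes, and for Hbb and 1388608_x_at animals 33 and 35 passed the highest control.

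The change of the 60 mg/kg effect between days was tested directly in adrenal. Day 14 minus day 4 gave 1.82 for 1370239_at (adjusted p = 0.0312), 1.68 for 1370240_x_at (adjusted p = 0.0222) and 1.56 for 1388608_x_at (adjusted p = 0.029), where 0.522% of all probe sets were called higher. Hbb changed by 1.46 with an adjusted p of 0.060 and Alas2 by 0.548 with an adjusted p of 0.247. The 3 calls held in 9, 12 and 10 of 16 fits with an animal left out, and all 3 ended without control animal 13, 25 or 27 or treated animal 35. No member was called for day 4 against day 1 or day 14 against day 1, where 0.00644% and 1.16% of probe sets were called.

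Slc4a1 was called in adrenal on day 14 through 1 of its probe sets. On that day 1387656_at scored -1.70, -1.50, -1.11 and -0.89 at 60 mg/kg, against -0.773, -0.511, -0.146 and 0.0572 in controls. It was the 1 member called there, with a difference of -0.958 (adjusted p = 0.0221), where 2.85% of all probe sets were called lower. The call ended without control animal 25 or 26 or treated animal 34 or 35, and in a fit of the compared groups alone (adjusted p = 0.143). Its other probe set, 1369634_at, differed by 0.216 (adjusted p = 0.826), so the probe sets of this gene disagreed. Scores of 1369634_at in AMG B adrenals lay either between -1.06 and -0.567 or between -0.0543 and 0.433, with animals of the same group in both ranges.

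**Figure D2:**
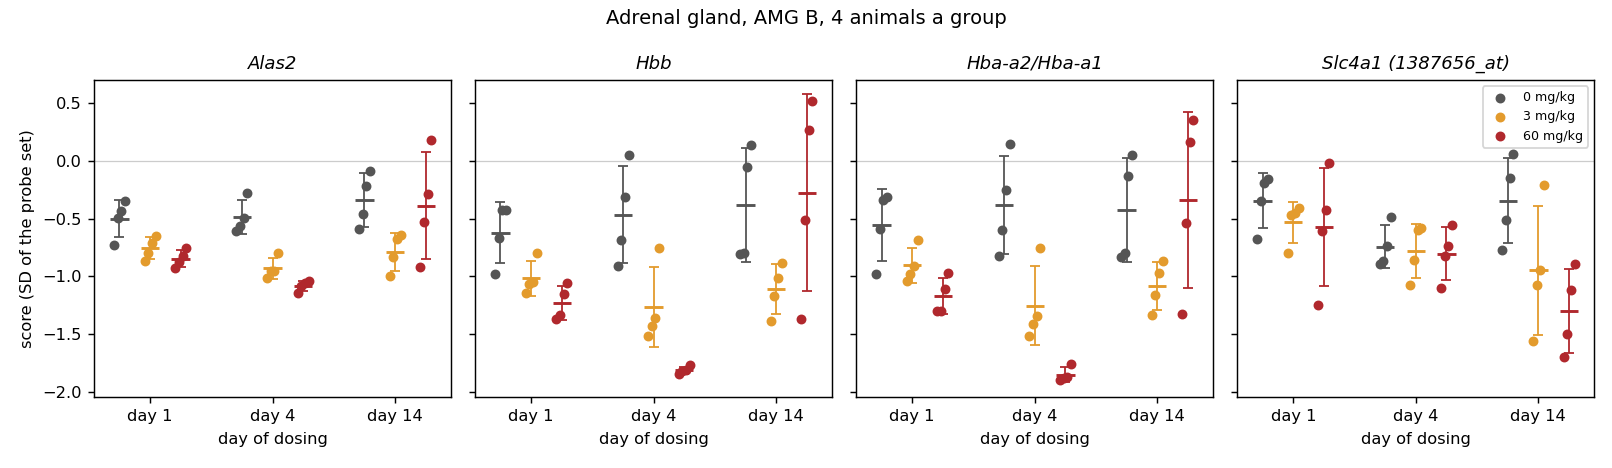
Scores in adrenal of rats given AMG B at 0, 3 or 60 mg/kg (x axis, grouped by day) for Alas2, Hbb, probe set 1388608_x_at of Hba-a2 and Hba-a1, and probe set 1387656_at of Slc4a1 (y axis, score in SD units of the probe set). Points are animals, lines the mean of 4 and bars the SD; Hbb and 1388608_x_at at 60 mg/kg sit in a tight cluster below controls on day 4 and spread from -1.37 to 0.518 for Hbb on day 14.

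Other transcripts moved in the same day 14 adrenals. Hmox1, the haem oxygenase that breaks haem down, scored 0.688 in animal 34, 2.25 in animal 36, 5.90 in animal 35 and 8.92 in animal 33, against -0.411 to 0.0517 in controls, a difference of 4.63 (adjusted p = 9.05e-05). Pf4, a platelet chemokine, scored -0.104, 0.389, 7.44 and 0.591 in these animals, against -0.243 to -0.158 in controls. S100a8, a neutrophil calcium binder, scored 1.68, 0.382, 7.76 and 0.783, against 0.0842 to 0.303. Both were by far the highest in animal 35. The mean of 8 neutrophil probe sets ran from -0.108 to 2.80 at 60 mg/kg and from -0.285 to 0.23 in controls, and that of 8 platelet probe sets from -0.453 to 0.547 and from -0.348 to -0.133. Other blood cell lists reached lower. The mean of 6 macrophage probe sets ran from -1.13 to -0.607 at 60 mg/kg and from -0.731 to -0.463 in controls. That of 12 lymphocyte probe sets ran from -0.389 to -0.237 and from -0.281 to 0.000248. The part of these transcripts in the scatter of the globins was not tested.

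At 3 mg/kg no member was called in adrenal on day 1, 4 or 14, where 0.00644%, 0.0354% and 0.00322% of all probe sets were called. Hbb scored -1.52, -1.43, -1.36 and -0.754 at 3 mg/kg on day 4, a difference of -0.802 from control (adjusted p = 0.521). On day 14 it scored -1.39, -1.17, -1.01 and -0.883 at 3 mg/kg, below every control, a difference of -0.732 (adjusted p = 0.646). Such a separation from control was seen on day 14 in 4 of the 8 probe sets, against 1.64% of all probe sets. Between the doses no member was called on day 1, 4 or 14, where 0.00966%, 0.0966% and 4.50% of probe sets were called. On day 14 the 60 mg/kg adrenals had the higher mean: Hbb differed by 0.839 (adjusted p = 0.0783) and Alas2 by 0.398 (adjusted p = 0.147). Without animal 34 these differences were 1.20 (adjusted p = 0.00319) and 0.576 (adjusted p = 0.0168), and 6 of the 8 probe sets were called higher. Without animal 33 or without animal 35, 0 were called.

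In pancreas, where only day 14 was sampled, no member was called for AMG B. At 60 mg/kg, 9.88% of all probe sets were called, and at 3 mg/kg 0.0226%. Hba-a3 scored -0.485, -0.39, -0.283 and 0.316 at 60 mg/kg, against 0.653, 1.25, 1.25 and 1.26 in controls. These groups did not overlap, and the difference of -1.31 had an adjusted p of 0.224 (95% interval -2.72 to 0.0866). Probe set 1388608_x_at differed by -0.682 (adjusted p = 0.198), Hbb by -0.537 (adjusted p = 0.407) and Alas2 by -0.416 (adjusted p = 0.803). For 3 of the 8 probe sets every treated pancreas lay below every control, against 9.52% of all probe sets. Between 60 and 3 mg/kg no member was called, where 3.68% of probe sets were. All 4 pancreatic enzyme markers (Cela1, Cpa1, Pnlip and Prss1) were lower at 60 mg/kg, with differences of -1.13 to -1.05, and the mean of 6 macrophage probe sets ran from -1.40 to -0.0214 at 60 mg/kg and from -0.762 to 0.453 in controls; their part in these values was not tested.

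The effects of 60 mg/kg on day 14 were then compared between tissues of the same rats, in 1 fit. Liver minus adrenal was -2.39 for Alas2 (SE 0.498, adjusted p = 0.0106), -1.94 for Hbb (adjusted p = 0.0178), -1.93 for Hba-a3 (adjusted p = 0.0292) and -1.84 for 1388608_x_at (adjusted p = 0.0188). These 4 of 8 probe sets had a lower difference from control in liver than in adrenal, where 0.583% of all probe sets were called lower. Calls for Alas2 and Hbb held with each of 16 arrays left out, that for 1388608_x_at in 14 fits and that for Hba-a3 in 7. Liver minus pancreas was called for Alas2 alone, at -2.03 (adjusted p = 0.00902), where 3.49% were called lower. For Hbb it was -1.29, with an adjusted p of 0.0529, and of 0.047 with the animal as a replicate block. Adrenal minus pancreas was called for Hba-a3 alone, at 1.51 (adjusted p = 0.0336), where 5.81% were called higher, and this call held in 7 of 16 fits and ended after quantile normalization. Alas2 controls of day 14 started at different scores, 1.08 to 2.01 in liver, -0.59 to -0.0834 in adrenal and -0.951 to 0.59 in pancreas. Its lowest scores in the AMG B study were -1.28, -1.15 and -1.16 in these tissues. The part of the starting levels in the differences between tissues was not tested.

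**Figure D3:**
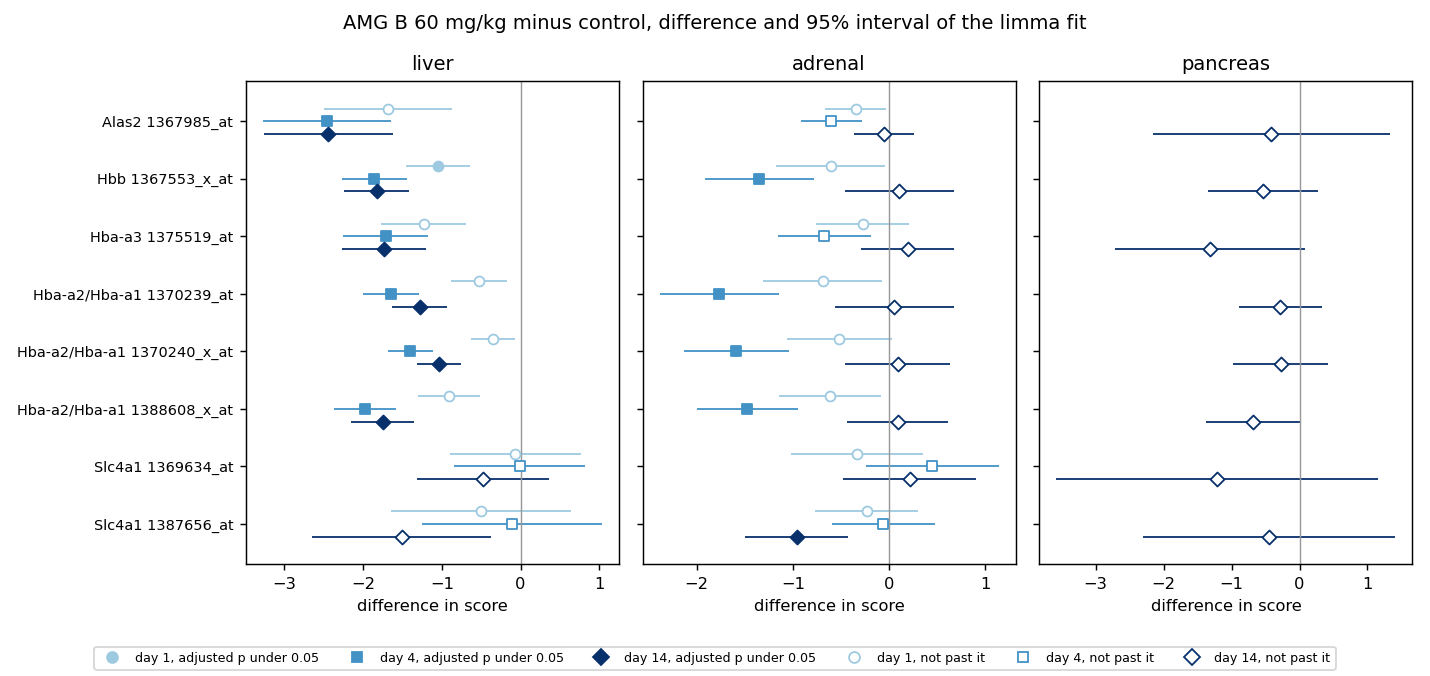
Difference between 60 mg/kg of AMG B and control (x axis, score in SD units of the probe set, with 95% intervals) for the 8 probe sets in liver, adrenal and pancreas on each sampled day. Filled points have an adjusted p under 0.05; the globins and Alas2 lie near -1 to -2.5 in liver on days 4 and 14, and near 0 in adrenal on day 14.

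Levels in control rats are given by tissue for Alas2, Hbb and Hba-a3. In controls of the AMG B study Alas2 ranged from 0.459 to 3.15 in liver (n = 12, median 1.33), from -0.951 to 0.59 in pancreas (n = 4, median -0.606) and from -0.727 to -0.0834 in adrenal (n = 12, median -0.476). Liver had the highest median and did not overlap with adrenal, while pancreas overlapped with both. Hbb ranged from -0.0983 to 0.87 in liver, from -0.108 to 0.12 in pancreas and from -0.978 to 0.138 in adrenal, so that the order of medians (0.645, 0.0171 and -0.546) had overlapping neighbours. Hba-a3 was highest in pancreas by its median of 1.25, with liver at 0.95 and adrenal at -0.848. Its liver range, 0.193 to 2.02, held the whole pancreas range of 0.653 to 1.26. The AMG A controls of day 14 (n = 4 per tissue) had an Alas2 median of 0.51 in pancreas and -0.498 in adrenal. That is the reverse of the AMG B order of medians, but not of its means, which were -0.393 in pancreas and -0.44 in adrenal. The Hbb median of the AMG A controls in pancreas was 0.57, against 0.0171 in the AMG B study. These levels are descriptions, and the arrays of a tissue share a fit.

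AMG A gave no called change in any member. Its liver arrays come from the other table, with array medians of -0.774 to -0.729, so their scores are not set against those of AMG B liver. In liver no member was called at 3 mg/kg on day 1, 4 or 14 (0.0378%, 0.0126% and 0.0063% of all probe sets) or at 30 mg/kg (0.366%, 0.0693% and 0.353%). The closest was the day 14 group at 30 mg/kg. There Hbb scored -0.152, 0.174, 0.682 and 0.782 at 30 mg/kg, against 1.06, 1.30, 1.36 and 1.45 in controls, without overlap, a difference of -0.92 (SE 0.405, adjusted p = 0.337). Alas2 scored -0.534, -0.303, -0.293 and -0.0134 at 30 mg/kg, against 0.131, 0.239, 0.362 and 0.584 in controls, a difference of -0.615 (adjusted p = 0.739). For 4 of the 8 probe sets all treated livers lay below all controls, against 3.73% of all probe sets. On day 1, in contrast, Alas2 differed by 0.812 (adjusted p = 0.652) and Hba-a3 by 1.13 (adjusted p = 0.392), with overlapping groups.

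Differences between 30 and 3 mg/kg of AMG A in liver were called for no member on day 1, 4 or 14 (0.0189%, 0.0063% and 0.063% of all probe sets), nor were changes of the 30 mg/kg effect between days (0% in each of the 3 contrasts). An unadjusted p under 0.05 was found for 4 members in day 4 minus day 1 (884 of 15866 probe sets), for 5 in day 14 minus day 1 (753) and for 1 in day 14 minus day 4 (829). In adrenal no probe set at all was called for AMG A at 3 or 30 mg/kg or between them (0%, 0% and 0%), and there the unadjusted p was under 0.05 for 0 members. Alas2 in adrenal averaged -0.468 ± 0.14 at 30 mg/kg and -0.487 ± 0.136 in controls (SD, n = 4 each). In pancreas no member was called at 3 mg/kg, at 30 mg/kg or between the doses (0.00322%, 0.00322% and 0.00966%). Hbb in pancreas averaged 0.169 ± 0.197 at 30 mg/kg and 0.546 ± 0.208 in controls, a difference of -0.377 (adjusted p = 0.882). For the difference between adrenal and pancreas in the effect of 30 mg/kg on day 14, no member was called (0.00644% were).

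A single rat had the highest Alas2 and globin scores of its group in all 3 of its tissues. Animal 3021, given 3 mg/kg of AMG A for 14 days, had an Alas2 score of 4.00 in liver, against -0.392 to -0.104 in the other rats of its group. In pancreas it scored 4.81, against -0.894 to 0.0052, and in adrenal 0.213, against -0.742 to -0.275. Hbb in this rat was 2.61 in liver, 2.28 in pancreas and 0.423 in adrenal, the highest of its group in each. Hba-a3 was 2.97 in liver, where the others lay between -0.591 and 0.761, and 4.69 in pancreas. Slc4a1 probe set 1387656_at read 2.97 in liver, 4.32 in pancreas and 0.423 in adrenal, again above its group. The other Slc4a1 probe set, 1369634_at, was below its group in pancreas, at -0.619 against 2.22 to 2.80, and within its range in liver, at 0.146 against -0.709 to 1.03, and in adrenal, at -0.745 against -1.04 to 0.482. With this animal the Alas2 difference between 3 mg/kg and control was 0.518 in liver, 0.598 in pancreas and 0.128 in adrenal. Without it these differences were -0.532, -0.692 and -0.0621, and no member was called with or without it.

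**Figure D4:**
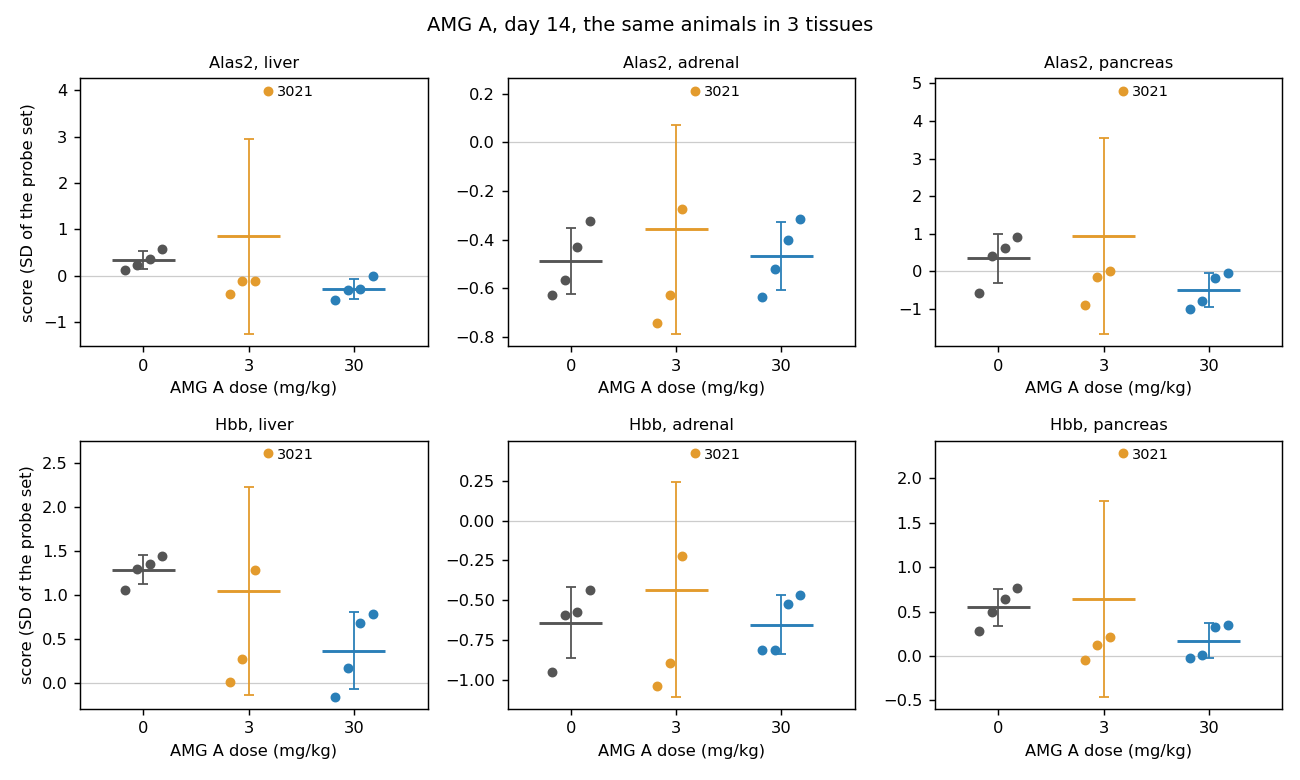
Scores of Alas2 and Hbb on day 14 in liver, adrenal and pancreas of rats given AMG A at 0, 3 or 30 mg/kg (x axis; y axis, score in SD units of the probe set). Points are animals, lines the mean of 4 and bars the SD; animal 3021, at 3 mg/kg, is the labelled point that reads 4.00 for Alas2 in liver and 4.81 in pancreas.

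The compounds share a dose of 3 mg/kg on day 14 in adrenal and pancreas, which gave 16 comparisons in 2 contrasts. In adrenal the AMG A effect minus the AMG B effect was 0.577 for Alas2 (95% interval 0.131 to 1.02) and 0.94 for Hbb (95% interval 0.137 to 1.74). With adjustment over all probe sets none of the 8 was called (0.00644% were), while 5 had an unadjusted p under 0.05, as did 1426 of all 31042 probe sets, and these 5 differences were positive. In pancreas the difference was 0.195 for Alas2 (95% interval -2.27 to 2.66) and -0.125 for Hbb (95% interval -1.27 to 1.02), with 0% of probe sets called, so the compounds were not shown to differ or to act alike. The adrenal groups of AMG A include animal 3021. The high doses of the compounds differ and are given side by side: on day 14 in adrenal, 30 mg/kg of AMG A gave -0.0145 for Hbb and 60 mg/kg of AMG B 0.107, and in pancreas -0.377 and -0.537.

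The globins varied with Alas2 across arrays, and Slc4a1 to a varying degree. Over the 36 liver arrays of AMG B, Pearson's r with Alas2 was 0.954 for Hba-a3, 0.937 for Hbb and 0.912 for 1388608_x_at, and 0.437 and 0.185 for Slc4a1 probe sets 1387656_at and 1369634_at. Over the 36 livers of AMG A it was 0.872 for Hba-a3, 0.842 for Hbb, 0.861 for 1388608_x_at, and 0.68 and 0.22 for the same Slc4a1 probe sets. Over the 48 adrenal arrays it was 0.962 for Hbb, 0.948 for 1388608_x_at and 0.838 for Hba-a3, and 0.305 and -0.344 for Slc4a1. The arrays share tissue, table and dose groups, so these are descriptions. Outside the members, and apart from probe sets annotated to Hbbl1 and Hbb-bs, the named genes most like Alas2 in liver were Cdc25b (r = 0.904), a cell cycle phosphatase, Bpgm (0.895 and 0.799 in its probe sets), the red cell enzyme that makes bisphosphoglycerate, Ybx3 (0.838) and Arhgdig (0.812). In adrenal they were Kcnab2 (0.748), Plekho1 (0.668), Ubox5 (0.645), Fgf1 (0.634) and Elfn2 (0.629), so no name recurred. Between tissues of the same animal, none of 24 relations over members held after adjustment. For Alas2 in adrenal and pancreas (24 animals) Pearson's r was 0.55 (permutation p = 0.0296, adjusted 0.157) and Spearman's rho 0.41 (permutation p = 0.0653, adjusted 0.392). Without animals 3021 and 33 that r was 0.343, and it was 0.852 within AMG A and 0.138 within AMG B. These animals, the farthest from the median in adrenal, were left out together, so the part of each was not tested.

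The beta globin neighbours of Hbb moved with it. Both probe sets annotated to Hbbl1 and Hbb-bs together differed in liver at 60 mg/kg by -1.60 and -1.18 on day 1, by -2.43 and -2.01 on day 4 and by -2.23 and -1.78 on day 14, all called lower (adjusted p of 0.0225 or less on day 1 and of 2.72e-05 or less later). In adrenal 1 of them fell by 1.18 on day 4 (adjusted p = 0.0125).

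Other genes of red cells and haem were read beside the members. In liver at 60 mg/kg on day 14, 918 of 31042 probe sets were called higher and 840 lower, and on day 4 128 and 83, so counts of 1 or 2 in a list are read against these. In liver at 60 mg/kg on day 14, 1 of 12 further genes of haem synthesis was lower, Alad, which makes porphobilinogen, with a difference of -0.963 (adjusted p = 0.00201), and the list's median difference was -0.166, against 0.0121 over all probe sets. Of 15 genes of the red cell membrane and its enzymes 1 was lower, Bpgm, with a difference of -0.651 (adjusted p = 0.000226), as it was on day 4, with -0.446 (adjusted p = 0.0289). Of 9 erythroid transcription factors 1 was lower, Zfpm1, a partner of GATA factors, with a difference of -1.76 (adjusted p = 0.0259). Of 12 genes of erythropoietin and iron supply 2 were higher: Bmp6, which drives hepcidin, by 2.35 (adjusted p = 0.00801) and Hfe, an iron sensor, by 0.961 (adjusted p = 0.0383). None of 7 genes of haemoglobin clearance and haem breakdown and none of 8 further globins and their chaperone was called. On day 4 the lists of haem synthesis, erythroid factors and iron supply held 0 called genes, and on day 1 no gene of these lists was called in liver.

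Among all probe sets in adrenal at 60 mg/kg, 92 were called higher and 184 lower on day 4, and 967 and 884 on day 14. On day 4 Lmo2, an erythroid and endothelial factor, fell by 0.921 (adjusted p = 0.0264), Gypc, a membrane glycoprotein, fell by 0.568 (adjusted p = 0.0398), and Dmtn, a membrane skeleton protein, rose by 0.899 (adjusted p = 0.0125). The red cell membrane list thus held 1 higher and 1 lower gene of 15, with a median difference of -0.254. On day 14 Fech, the last enzyme of haem synthesis, fell by 0.766 (adjusted p = 1.33e-05) and Cpox rose by 0.844 (adjusted p = 0.0495), 2 of 12 haem synthesis genes in opposite directions. Tfrc, the transferrin receptor, rose by 3.50 and 3.40 in its probe sets (adjusted p = 0.000234 and 0.000339), Slc11a2, an iron transporter, by 0.609 (adjusted p = 0.0164), and Nfe2, an erythroid factor, by 1.52 (adjusted p = 0.00865). Hpx, which binds free haem, fell by 0.369 (adjusted p = 0.0287), and Aqp1, a water channel of red cells and endothelium, fell by 0.915 (adjusted p = 0.0131). In pancreas, where 1546 probe sets were called higher and 1521 lower, 1 haem synthesis gene of 12 and 1 iron supply gene of 12 were lower, and 1 red cell membrane gene of 15 was higher and 1 lower.

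Epo, Hamp, Alas1 and Hmox1 were read in every tissue. Epo, the red cell growth factor, and Hamp, the hepatic iron hormone, were not called at the high dose of either compound. In liver at 60 mg/kg of AMG B, Hamp differed by 0.91 on day 4 (adjusted p = 0.221) and by 0.703 on day 14 (adjusted p = 0.237). In adrenal on day 4, Hamp lay above every control at both doses of AMG B, uncalled. The difference was 1.09 at 60 mg/kg (adjusted p = 0.0669) and 0.884 at 3 mg/kg (adjusted p = 0.465). Alas1, the housekeeping counterpart of Alas2, differed in liver at 60 mg/kg by -0.114 on day 4 (adjusted p = 0.896) and by -0.575 on day 14 (adjusted p = 0.124). On day 14 every treated liver lay below every control for Alas1, as for 4.95% of all probe sets. Hmox1 in liver differed by 0.00847 and 0.199 on these days (adjusted p = 0.994 and 0.67).

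Markers of other blood cells and of macrophages were read beside the liver result. The mean of 6 macrophage probe sets ran from -0.885 to 0.226 at 60 mg/kg on day 4 and from 0.182 to 1.36 in controls, and on day 14 from -0.981 to 1.03 at 60 mg/kg and from 0.563 to 1.51 in controls. Of the 6 macrophage genes 5 were lower on day 14, with differences of -1.71 for C1qa (adjusted p = 0.00654), -1.61 for Adgre1, -1.89 for C1qb and -1.56 for Csf1r, and 0 were called on day 4. On day 4 the 8 neutrophil probe sets averaged 0.223 to 0.388 at 60 mg/kg and -0.171 to 0.169 in controls, without overlap, and the 12 lymphocyte probe sets -0.431 to -0.153 and -0.165 to -0.0815. The 8 platelet probe sets averaged 0.223 to 0.432 at 60 mg/kg and 0.109 to 0.809 in controls on that day. These platelet probe sets averaged 0.238 to 0.374 at 60 mg/kg and 0.171 to 0.75 in controls on day 14, with a difference of -0.544 for Gp9 (adjusted p = 0.00726). On day 14 the neutrophil probe sets averaged 0.0258 to 0.631 at 60 mg/kg and -0.0998 to 0.473 in controls, and the lymphocyte probe sets -0.334 to -0.125 and -0.275 to -0.0995, with no gene called. The part of these cells in the fall of the globins and Alas2 was not tested.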

How the data were processed

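RNA of liver, adrenal and pancreas was extracted with Qiagen kits and 5 ug was labelled with biotin in 1 cycle for arrays, per the labels' protocols. The authors deposited scores standardised per probe set, and how the scanner signal was processed is not given in the sources used here. Array number (4 animals per group) limits precision, and signal over background is unknown. Animals were grouped by compound, tissue, dose and day from the labels. Titles of the day 14 adrenal controls and of the pancreas controls name no compound, and their animal numbers are those of liver controls whose titles name it. Each gene's symbol comes from GEO's platform annotation updated through RefSeq. On the arrays of adrenal, pancreas and the liver of AMG B, 9780 probe sets carried no symbol, 20826 a single one and 436 more than 1. On those of the liver of AMG A the counts were 2771, 12783 and 312.

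Scores were tested as deposited with limma 3.58.1 in R 4.3.3 (lmFit, contrasts.fit and eBayes with a trend, two-sided). Liver had a separate fit for each compound. Adrenal and pancreas each had a single fit over the groups of both compounds, which therefore share an estimate of the spread. Tissues were compared on day 14 in a joint fit per compound. p-values were adjusted by Benjamini-Hochberg within each contrast, over all probe sets, at 0.05. The plan had foreseen log2 values, and the scores were tested unlogged, so the planned pseudocounts were not applied. Fits were tested on simulated data. The animal number marks tissues of 1 rat, which sets the replicate block (consensus correlation 0.0236 for AMG B and 0.0202 for AMG A). Replicates are separate animals. Alternatives were quantile normalization, subtraction of array medians, a filter on low scores, no trend, only the compared groups, 1 probe set per gene and each animal left out. Permutation p-values of correlations used 100000 draws with scipy 1.17.1. Figures used matplotlib 3.10.9.

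Every member was described in every contrast. From 13 lists (131 genes), up to 4 genes with the smallest adjusted p were named where members were also called at the high dose of AMG B, other markers being named beside a result they moved with. Members and lists were chosen with earlier results of these data known.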

Additional observations from a re-analysis of the deposited data

Results flagged for a closer look

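Within groups of 4 animals, 19 of 288 combinations of probe set and group (6.6%) had an animal whose gap to the nearest other, as a share of the group's range, passed Dixon's critical value. Chance gives about 1 in 20. Animal 3021, at 3 mg/kg of AMG A on day 14, had 6 of them: in pancreas Hbb (gap 0.889), Alas2 (0.842), Hba-a3 (0.915) and Slc4a1 probe set 1369634_at (0.83, where it was low at -0.619 against 2.22 to 2.80), in liver Alas2 (0.934) and in adrenal Slc4a1 probe set 1387656_at (0.841).

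In livers of the AMG B study Alas2 had a gap of 0.87 for animal 35 at 60 mg/kg on day 14 (-0.783, against -1.04 to -1.0) and of 0.887 for control animal 2 on day 1 (3.15, against 1.02 to 1.26). Probe set 1370239_at had a gap of 0.877 there for control animal 3 on day 1.

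Among adrenals, Slc4a1 probe set 1369634_at had gaps of 0.848 for animal 3035 at 30 mg/kg of AMG A, of 0.896 for animal 6 at 3 mg/kg of AMG B on day 1 and of 0.939 for AMG B control animal 16 on day 4. Probe set 1387656_at had one of 0.83 for animal 5 at 3 mg/kg of AMG B on day 1, and 1370239_at one of 0.851 for animal 18 at 3 mg/kg on day 4. Hba-a3 had one of 0.877 for control animal 13 on day 4, the animal without which the Hbb call of that day ended.

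Among control pancreases, AMG A animal 3012 was low for 1370240_x_at (0.951) and Hba-a3 (0.838), and AMG B animal 27 stood apart for 1370239_at (0.842) and Hba-a3 (0.98, 0.653 against 1.25 to 1.26).

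Differences between groups that passed their own test were those of the 60 mg/kg effect of AMG B on day 14. Liver minus adrenal gave -2.39 for Alas2, -1.94 for Hbb, -1.93 for Hba-a3 and -1.84 for 1388608_x_at. Liver minus pancreas gave -2.03 for Alas2, and adrenal minus pancreas 1.51 for Hba-a3. In adrenal the effect on day 14 minus that on day 4 was 1.82 for 1370239_at, 1.68 for 1370240_x_at and 1.56 for 1388608_x_at.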

How the results depend on the processing

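Of 512 checks of called member values, 431 kept direction and call, 81 kept direction and lost the call, and 0 turned sign. The sign could not turn with no trend, the low-score filter, only the compared groups, 1 probe set per gene or the replicate block. These leave the difference unchanged. Of 3864 uncalled member values with an animal left out, 280 turned sign and 23 became called. Of 1544 under other settings, 9 turned sign and 6 became called. The 6 member calls of AMG B at 60 mg/kg in liver on days 4 and 14 were made with each animal left out. With only the compared groups in the fit, 4 of 6 were made on each day: Alas2 (adjusted p = 0.0926) and Hba-a3 (0.142) lost theirs on day 4, and 1370239_at (0.0582) and 1370240_x_at (0.0728) on day 14. The same fit gave 0 calls in liver on day 1 at 60 mg/kg (1 in the fit over all groups), 0 at 3 mg/kg on day 4 (1), 0 in adrenal at 60 mg/kg on day 4 (4) and on day 14 (1), and 1 in pancreas at 60 mg/kg (0). With an animal left out the counts were 0 to 2, 0 to 4, 3 to 5, 0 to 1 and 0 for these contrasts. They were 1 to 4 for 60 against 3 mg/kg in liver on day 4 (3), 0 to 6 for that in adrenal on day 14 (0), 0 to 1 for the change from day 1 to day 4 in liver (0) and 0 to 5 for that from day 4 to day 14 in adrenal (3). With 1 probe set per gene adrenal had 2 calls on day 4 and 0 on day 14. Between tissues, the counts with an array left out were 2 to 6 for liver minus adrenal (4), 1 to 3 for liver minus pancreas (1) and 0 to 1 for adrenal minus pancreas (1). Quantile normalization gave 3 for liver minus pancreas and 0 for adrenal minus pancreas. With the replicate block, the tissue counts were 4, 2 and 1 for AMG B and 0 for AMG A, and no other call changed. Over all probe sets, the count at 60 mg/kg on day 14 was 1758 in liver, 1851 in adrenal and 3067 in pancreas, against 85, 125 and 1450 with only the compared groups. On day 4 it was 211 in liver and 276 in adrenal, against 103 and 22. The cause of these changes was not tested beyond the fewer groups and animals in each fit.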
